A study of Rattus norvegicus with 10 samples.

Results

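Collagen, laminin, nidogen, perlecan and fibronectin genes were read in rat skeletal muscle at 4 levels of mild calorie restriction (CR) and 2 durations. Members were taken from the array annotation by symbol: each Col gene with a chain number, each Lama, Lamb and Lamc gene, and Nid1, Nid2, Hspg2 and Fn1. The rule gave 55 genes of 14217 genes with a probe set of their own, and 41 of the 55 were collagens and 10 were laminins. Each gene was read from its brightest probe set, and where a gene had more than 1 tested probe set (11 genes) the sign was the same in all 11 for duration and in 10 for the level of restriction, Col5a2 being the exception. It was the same in 9 for restricted against control arrays and in 9 for the level within the restricted arrays. For the difference of slopes between the durations it was the same in 7. The rule itself reads only symbols.

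Male Wistar rats, 6 weeks of age at the start, received AIN-93G diet at the daily intake recorded in freely fed rats (control) or at 5%, 10%, 20% or 30% less, for 1 week or 1 month. After a 16 h fast the gastrocnemius, a mixed calf muscle, was taken, and RNA of the 5 rats in a group was pooled and put on 1 Affymetrix array, so the 10 groups had 10 arrays and no group had a replicate. The spread between rats was therefore not measured, and each p-value below rests on the scatter of pooled arrays around a fitted line. Rats of the 1 month groups were older when muscle was taken, and the deposited arrays of each duration had been scaled to a level of their own, so age, time on the diet and the handling of the arrays cannot be told apart in a comparison of the durations. The free-text notes of the 1 week control and the 1 week 5% CR arrays each state the feeding of the other, while titles and diet fields match. The titles were used, and several results that rest on these arrays are also given with both exchanged.

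Fibrillar collagens (types I, II, III, V, XI, XXIV and XXVII) form the rope-like fibres of tendon and of the connective tissue around muscle fibres, and fibroblasts and tendon cells make most of them. Basement membranes are thin sheets that wrap each muscle fibre and capillary. A laminin network (1 alpha, 1 beta and 1 gamma chain per molecule) and a type IV collagen network are joined there by nidogens and the proteoglycan perlecan, the product of Hspg2. Type VI collagen lies between both systems, multiplexins (types XV and XVIII) sit at the outer face of basement membranes, and fibronectin, the product of Fn1, is a scaffold for newly laid matrix.

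Signals are given as MAS5 intensity after each array was rescaled to a trimmed mean of 100. Probe sets differ in brightness for technical reasons, so a signal is compared between arrays and never between genes. A gene was tested when the geometric mean of its signal over the 10 arrays reached 19.31, the 50th percentile of probe sets, and 35 of the 55 members did. These were 7 of 11 fibrillar genes, 14 of 18 basement membrane genes, 4 of 5 type VI genes, both multiplexins, 4 of 9 fibril-associated (FACIT) genes, and Col7a1, Col8a2, Col26a1 and Fn1. Cartilage chains (Col2a1, Col11a2, Col9a1, Col9a2, Col9a3), the epithelial Lama3, Lama1, Col4a4, Col4a6 and the 4 transmembrane collagens were among the 20 below that signal, with Col6a5, Col8a1, Col10a1, Col19a1, Col20a1, Col24a1 and Col27a1. In whole muscle, fewer cells of a type and less RNA per cell cannot be told apart.

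Marker genes placed some arrays apart from the rest. The summed signal of 9 slow fibre genes was 3122 on the 1 week control array and 5777 to 13652 on the other 9 arrays. That of 9 fast fibre genes was 100200 on the 1 month control array and 64611 to 91047 on the other 9. The summed signal of 5 tenocyte (tendon cell) genes was 1290 on 1 week 5% CR, 1465 on 1 week 20% CR and 1349 on 1 month 20% CR, and between 637 and 891 on the other 7 arrays. None of these 5 was at 0 on any array, and 4 of them (Fmod, Scx, Tnmd and Thbs4) were bright enough to be tested. Fibroblast markers (8 genes) summed to 6662 to 8300 at 1 week and 7302 to 9023 at 1 month. All 6 markers of cycling cells lay below the filter.

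Matrix genes were lower at 1 month than at 1 week. Of the 35 tested members, 25 were lower and 0 were higher at 1 month (limma, Benjamini-Hochberg adjusted p under 0.05), where 10.4% of the 9170 genes tested differed, 5.22% lower and 5.15% higher. The 25 include Col26a1, whose 1 month signals all lay below the filter. The median log2 difference of the members was -0.54, and that of all genes tested was 0.01. All 7 fibrillar genes were lower (median -0.72), as were 10 of 14 basement membrane genes (median -0.60) and 4 of 4 type VI genes (median -0.66). The call of 18 of the 25 genes was kept in each of 24 other ways of processing or leaving out an array.

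**Figure D1:**
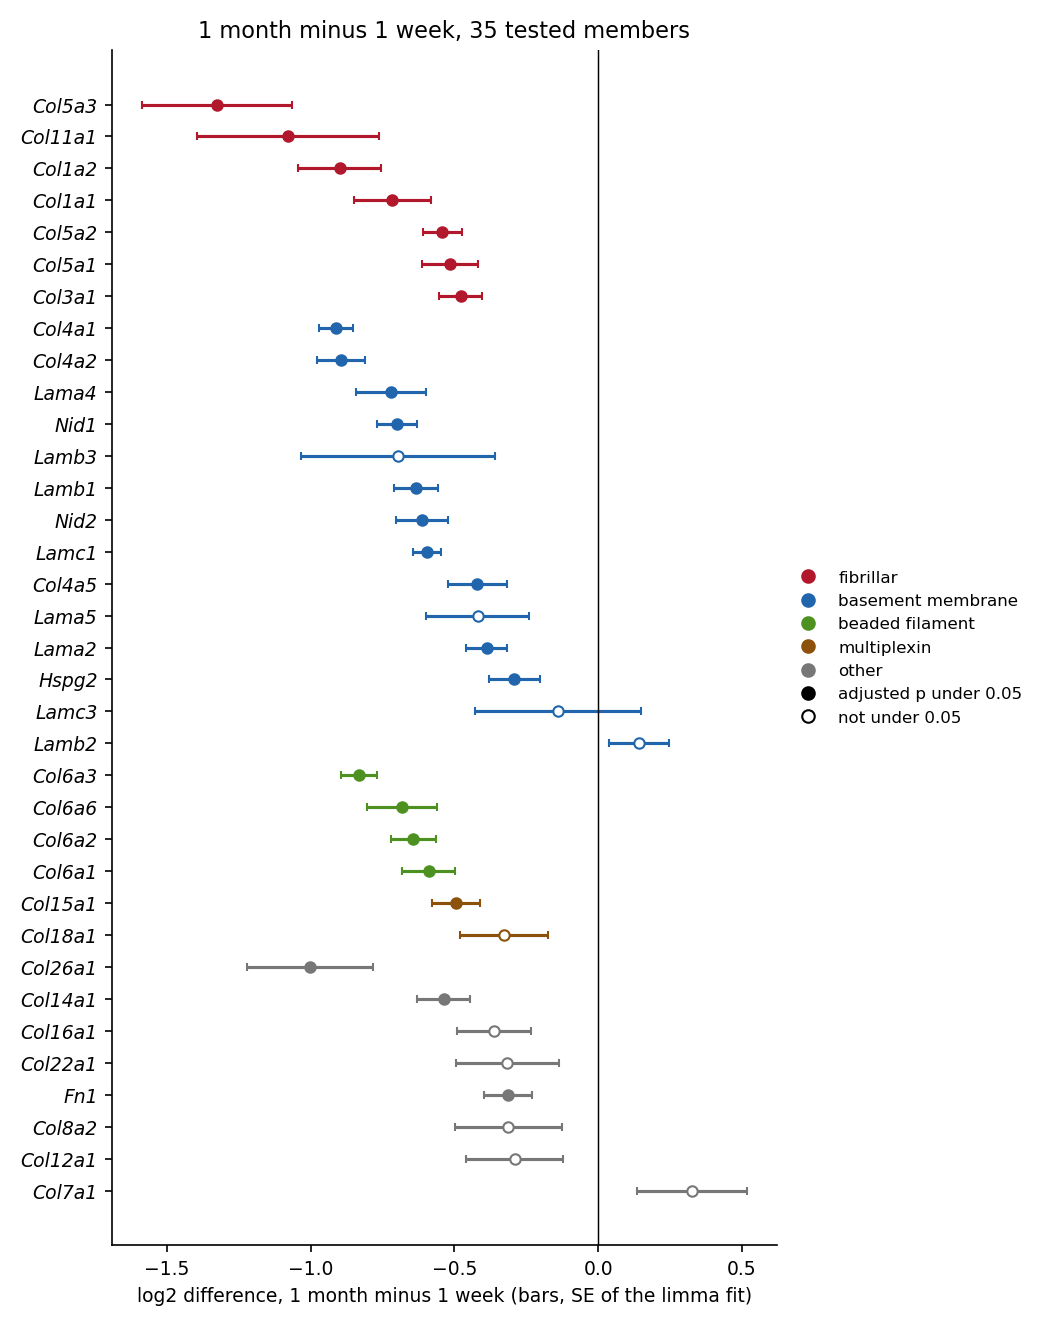
Log2 difference between 1 month and 1 week (x axis) for each of the 35 tested members (y axis), by family, with the SE of the limma fit as bars. Filled points passed an adjusted p of 0.05. Of the 35 estimates 33 lie below 0, and Lamb2 and Col7a1 lie above it.

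All 3 tested type IV collagen chains were lower on every 1 month array than on any 1 week array. Col4a1, 1 of the chains of the common type IV network, had signals of 858, 909, 840, 718 and 619 at 1 week (control, then 5%, 10%, 20% and 30% CR) and of 463, 468, 406, 394 and 354 at 1 month. Its highest 1 month array lay below its lowest 1 week array. It was 1.88-fold lower at 1 month (log2 -0.91 ± 0.058 SE, adjusted p = 2.72e-06). Col4a2, its partner chain, read 254, 280, 270, 207 and 193 at 1 week and 139, 134, 138, 111 and 121 at 1 month, again with no overlap (log2 -0.89 ± 0.083, adjusted p = 2.32e-05). Col4a5, a chain of a rarer type IV network, differed less (log2 -0.42, adjusted p = 0.0178).

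Among laminins, the chains of the muscle fibre and capillary sheets did not all differ. Lamc1, the gamma chain shared by most laminins, ranged from 817 to 1002 at 1 week and from 566 to 672 at 1 month (log2 -0.60 ± 0.049, adjusted p = 1.07e-05). Lama4, the alpha chain known from capillaries and nerve, ranged from 119 to 144 and from 64.2 to 105 (log2 -0.72 ± 0.12, adjusted p = 0.00204). Lama2, the alpha chain of the muscle fibre sheet, ranged from 427 to 543 and from 349 to 411 (log2 -0.39 ± 0.071, adjusted p = 0.00336). Lamb1 was lower as well (log2 -0.63, adjusted p = 0.000156). Lamb2, the beta chain known from the neuromuscular junction, had overlapping ranges of 204 to 301 and 239 to 305 and did not pass (log2 0.14 ± 0.11, adjusted p = 0.449). Lama5, Lamb3 and Lamc3 did not pass either, and their signals were dim.

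The linkers were also lower. Nid1 read 1272, 1485, 1441, 1382 and 1430 at 1 week and 759, 906, 954, 814 and 890 at 1 month (log2 -0.70 ± 0.069, adjusted p = 3.49e-05). No 1 month array reached a 1 week array. Nid2 had a log2 difference of -0.61 (adjusted p = 0.000805). Hspg2 ranged from 124 to 157 and from 99.2 to 119, and its smaller difference (log2 -0.29 ± 0.088, adjusted p = 0.0483) passed in 6 of 24 alternatives. Durations lay wholly apart, with 1 month lower, in 10 of 14 basement membrane genes, 5 of 7 fibrillar genes and 4 of 4 type VI genes, against 3.95% of all genes tested.

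Type I collagen is the main protein of tendon and of muscle connective tissue, and both of its chains were lower at 1 month. Col1a1 read 3131, 3444, 2669, 3635 and 2684 at 1 week and 1462, 1465, 1758, 2538 and 2460 at 1 month. The ranges did not overlap, but the 1 month arrays at 20% and 30% CR came close to the lowest 1 week array. Over all levels the log2 difference was -0.72 ± 0.13 (adjusted p = 0.00385). Level by level it was -1.10 between the controls, -1.23 at 5%, -0.60 at 10%, -0.52 at 20% and -0.13 at 30% CR. Col1a2, the other type I chain, read 2630, 3316, 2468, 3615 and 2823 at 1 week and 1211, 1227, 1322, 2458 and 2015 at 1 month (log2 -0.90 ± 0.14, adjusted p = 0.00145).

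Type III collagen, which makes the finer fibres of the sheath around muscle fibres, was steadier. Col3a1 ranged from 4696 to 5192 at 1 week and from 3074 to 4260 at 1 month, with no overlap (log2 -0.48 ± 0.074, adjusted p = 0.00112). The type V chains, which start fibrils and set their width, were lower for Col5a1 (log2 -0.52), Col5a2 (log2 -0.54) and Col5a3 (log2 -1.33 ± 0.26, adjusted p = 0.00496). Col5a3 read 119, 112, 104, 63.9 and 44.6 at 1 week and 93.5, 21.0, 32.4, 26.1 and 24.2 at 1 month, so its 1 month control lay inside the 1 week range. Col11a1 had a log2 difference of -1.08 ± 0.32 (adjusted p = 0.0437) at signals of 14.0 to 74.5, and it passed in 11 of 24 alternatives.

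With the mean tenocyte signal as a covariate, an alternative added after the data were seen, the differences of Col1a1 (log2 -0.52, adjusted p = 0.015) and Col1a2 (log2 -0.65, adjusted p = 0.000911) were smaller and still passed, Col11a1 did not pass (log2 -0.61, adjusted p = 0.18), and 22 of the members passed in all. With the slow fibre genes as a covariate 24 passed. With the 1 week control and 5% CR arrays exchanged 24 passed, and without the 1 week control array 24 passed.

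Other members followed the same direction with exceptions. Type VI chains, which form beaded filaments around cells, had log2 differences of -0.59 (Col6a1), -0.64 (Col6a2), -0.83 (Col6a3) and -0.68 (Col6a6). Col6a3 ranged from 740 to 886 at 1 week and from 424 to 474 at 1 month. Col15a1 (log2 -0.49, adjusted p = 0.00196) and Col14a1 (log2 -0.54) passed. Col26a1 was 2.01-fold lower (SE of the log2 difference 0.22, adjusted p = 0.00948). Fn1 ranged from 479 to 604 and from 355 to 493 (log2 -0.31 ± 0.083, adjusted p = 0.0266), with overlap. Col7a1, the anchoring fibril chain, had a positive estimate that did not pass (log2 0.33, adjusted p = 0.317).

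Genes that fold, trim and cross-link collagen were partly lower at 1 month as well, where 5.22% of all genes tested were lower and 5.15% higher. Of 20 tested maturation genes 8 were lower and 0 were higher, with a median of -0.16. They included the cross-linking enzymes Loxl1 (log2 -0.91, adjusted p = 0.000811), Loxl2 (log2 -0.81) and Lox (log2 -0.77). Of 18 genes for fibrous matrix, proteins that bind it and the signals Tgfb1, Tgfb2, Tgfb3 and Ccn2, 5 were lower. Among these 5 were the proteoglycan Bgn (log2 -0.83), Postn (log2 -0.61) and Lum (log2 -0.49). Of 13 genes for degradation or its inhibitors (Timp1, Timp2, Timp3 and Timp4), only Mmp14, a membrane-bound collagenase, was lower (log2 -0.50, adjusted p = 0.00871). Of 15 basement membrane receptor genes 3 were lower, the integrin chains Itga6 (log2 -0.62) and Itgb1 (log2 -0.32) and the laminin receptor Bcam (log2 -0.43).

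Cell type markers moved with duration less evenly, where 5.22% of all genes tested were lower and 5.15% higher. Of 8 fibroblast markers 2 were higher and 2 were lower at 1 month (median -0.09), and of 7 endothelial markers 2 were lower and 0 were higher (median -0.32). Endothelial sums ran from 727 to 986 in the 1 week arrays and from 645 to 768 in those of 1 month. None of 4 tenocyte markers passed at an adjusted p of 0.05 (limma), and their median was -0.35. At an unadjusted p under 0.05 were 1 of them and 2299 of all 9170 genes tested. Estimates were below 0 for all 6 smooth muscle and pericyte markers tested (median -0.29), and Rgs5 (-0.37, adjusted p = 0.00138) and Pdgfrb (-0.42, adjusted p = 0.0314) were lower at 1 month. So were the Schwann cell gene Pmp22 (-0.42, adjusted p = 0.00303), the macrophage receptor Mrc1 (-0.45, adjusted p = 0.0273) and, of 9 slow fibre markers, Casq2 (-0.68, adjusted p = 0.043) and Tpm3 (-0.40, adjusted p = 0.0189). Most markers of the last 2 lists went the other way. Estimates were above 0 for 4 of 6 macrophage markers (median 0.10) and 6 of 9 slow fibre markers (median 0.24). The part of these cell types in the lower collagen and laminin signals was not tested beyond the covariate fits.

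Over the level of restriction few members passed. Per 10 percentage points of restriction, with duration as a factor, Col4a1 and Col15a1 fell and no member rose, so 2 of 35 passed where 2.17% of all genes tested did (1.11% rose and 1.06% fell). Unadjusted p was under 0.05 for 9 members, 5 with a negative and 4 with a positive slope. Among all 9170 genes tested it was under 0.05 for 1355, 641 with a negative and 714 with a positive slope. The median slope was 0.09 for fibrillar genes, -0.04 for basement membrane genes and 0.00 for all genes tested.

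Col4a1 signals were highest at 5% CR and lowest at 30% CR at each duration. The slope was -0.16 ± 0.027 per 10 percentage points (adjusted p = 0.00841). A separate probe set for Col4a1 gave -0.19 (adjusted p = 0.0295). In the 8 restricted arrays alone Col4a1 was the only member that passed (-0.18 ± 0.032, adjusted p = 0.0439), where 0.284% of all genes did. The slope in all arrays passed in 19 of 24 alternatives, with a range of -0.18 to -0.13. It missed the threshold without the 1 week 30% CR array (-0.14, adjusted p = 0.0823), and it passed with the 1 week control and 5% CR arrays exchanged (-0.16, adjusted p = 0.0121) and without the 1 week control (-0.17, adjusted p = 0.0231). In the restricted arrays alone the call was lost in 15 of 22 alternatives, including the exchange (adjusted p = 0.0703).

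Col15a1, a multiplexin of the outer face of muscle and capillary basement membranes, read 441, 441, 420, 399 and 376 at 1 week and 394, 302, 336, 241 and 230 at 1 month. The 30% CR array was the lowest at each duration, and the slope was -0.16 ± 0.039 (adjusted p = 0.0428). This call passed in 5 of 24 alternatives, was lost when the 1 week control array (adjusted p = 0.0613) or the 1 month control array (adjusted p = 0.153) was left out and when the former was exchanged with the 5% CR array (adjusted p = 0.0615), and a separate probe set gave -0.10 (adjusted p = 0.354). Col4a2 (-0.13 ± 0.039, adjusted p = 0.101) and Lamc1 (-0.09 ± 0.023, adjusted p = 0.0605) did not pass.

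**Figure D2:**
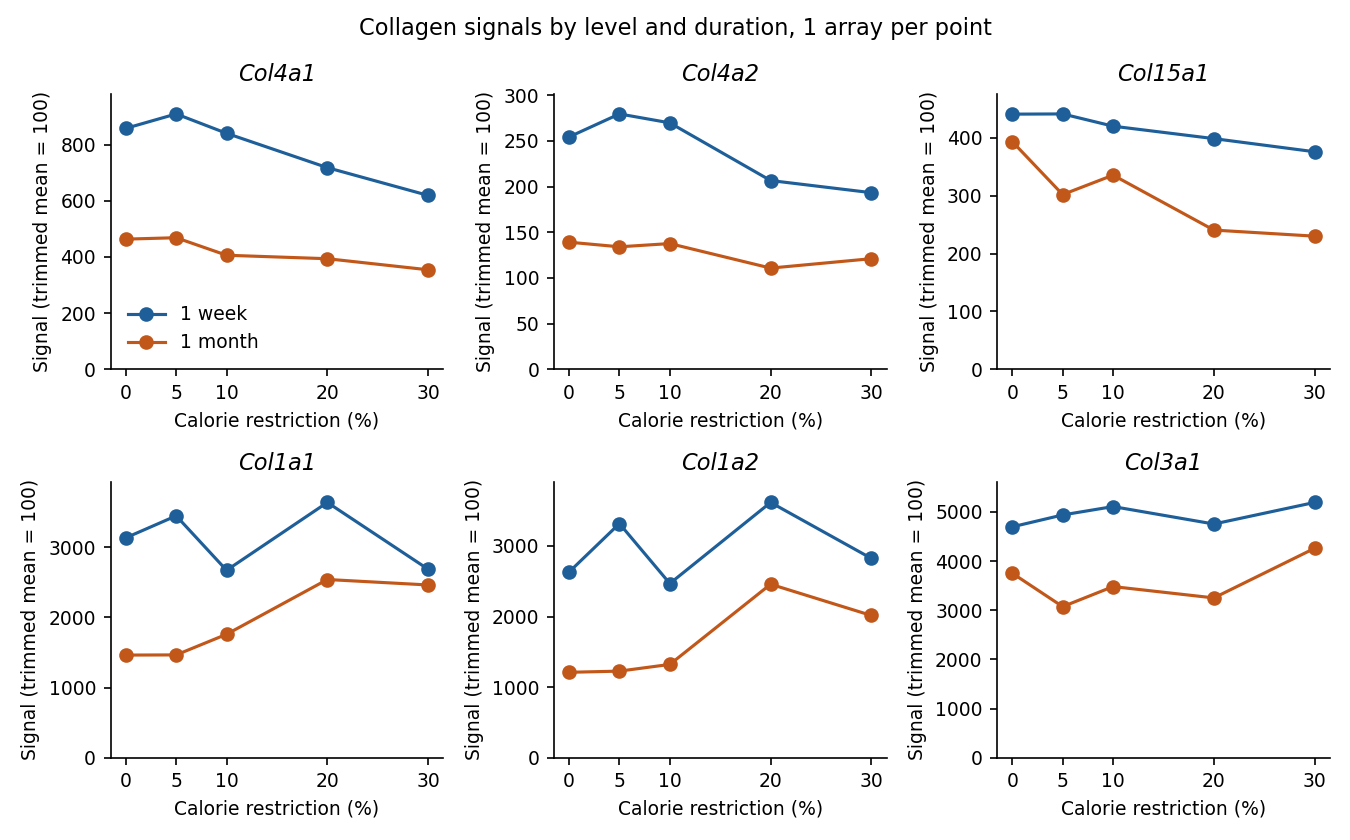
Rescaled MAS5 signal (y axis, from 0) against the level of restriction (x axis) for 6 collagen genes, with 1 pooled array per point and a line per duration. Col4a1 runs from 858 to 619 at 1 week and from 463 to 354 at 1 month between control and 30% CR, whereas Col1a1 runs from 1462 to 2460 at 1 month and has no steady course at 1 week.

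Col4a1 and Col4a2 lie head to head, and 76 bases separate their annotated starts, so this interval is shown with the upstream sequence of Col15a1, the other gene that fell, and of Col1a2, whose slope was positive. Sequences are from RefSeq, build GRCr8, in the direction of the gene named first, at chr16:84885521-84885596, chr5:66297296-66297545 and chr4:33518307-33518556, all on the plus strand, and each ends at the base before the annotated start. Capitals mark the CCAAT box (CCAAT), the GC box (GGGCGG) and the TATA box (TATAAA), searched on both strands.
Col4a1 and Col4a2: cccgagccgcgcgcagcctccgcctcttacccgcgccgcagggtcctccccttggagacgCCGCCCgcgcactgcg
Col15a1: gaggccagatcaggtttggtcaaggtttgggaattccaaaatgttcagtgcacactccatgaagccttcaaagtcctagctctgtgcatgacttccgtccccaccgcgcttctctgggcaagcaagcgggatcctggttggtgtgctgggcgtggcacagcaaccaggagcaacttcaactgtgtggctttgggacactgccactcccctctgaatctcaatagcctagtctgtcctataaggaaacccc
Col1a2: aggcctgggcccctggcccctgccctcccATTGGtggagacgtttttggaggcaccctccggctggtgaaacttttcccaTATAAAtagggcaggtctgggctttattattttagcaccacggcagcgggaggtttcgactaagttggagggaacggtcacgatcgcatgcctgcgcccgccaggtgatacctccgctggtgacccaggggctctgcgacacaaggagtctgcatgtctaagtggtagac

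The shared type IV interval held GGGCGG on the minus strand, 16 bases before the Col4a1 start. Of all 33469 upstream windows of 76 bases, 18.1% held GGGCGG on either strand at any position. The Col1a2 window held CCAAT on the minus strand and TATAAA on the plus strand, starting 221 and 170 bases before the start, and the Col15a1 window held none of the motifs. Among all upstream windows of 250 bases, 34.0% held CCAAT, 30.5% GGGCGG and 12.9% TATAAA. A promoter was found for 43 of the 55 members, and 12 of these held CCAAT, 25 held GGGCGG and 5 held TATAAA. These matches are letters in a window and were not tested as binding sites. Col1a1 and Col3a1 are named without sequence.

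The slopes of the remaining core genes did not pass. Per 10 percentage points they were 0.13 ± 0.063 for Col1a1 (adjusted p = 0.377), 0.19 ± 0.067 for Col1a2 (adjusted p = 0.198), 0.05 for Col3a1 (adjusted p = 0.551) and 0.06 for Fn1 (adjusted p = 0.563). In the basement membrane they were 0.05 for Lama2 (adjusted p = 0.53), 0.03 for Lamb2 (adjusted p = 0.85), 0.03 for Nid1 (adjusted p = 0.776) and -0.05 for Hspg2 (adjusted p = 0.66). Slopes were positive for 6 of 7 fibrillar genes and negative for 9 of 14 basement membrane genes, and 4704 of the 9170 genes tested had a positive slope. The fibrillar exception was Col5a3, with a slope of -0.46 ± 0.12 (adjusted p = 0.0711). A separate probe set for Col5a2 also gave a negative slope (-0.02, adjusted p = 0.817).

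**Figure D3:**
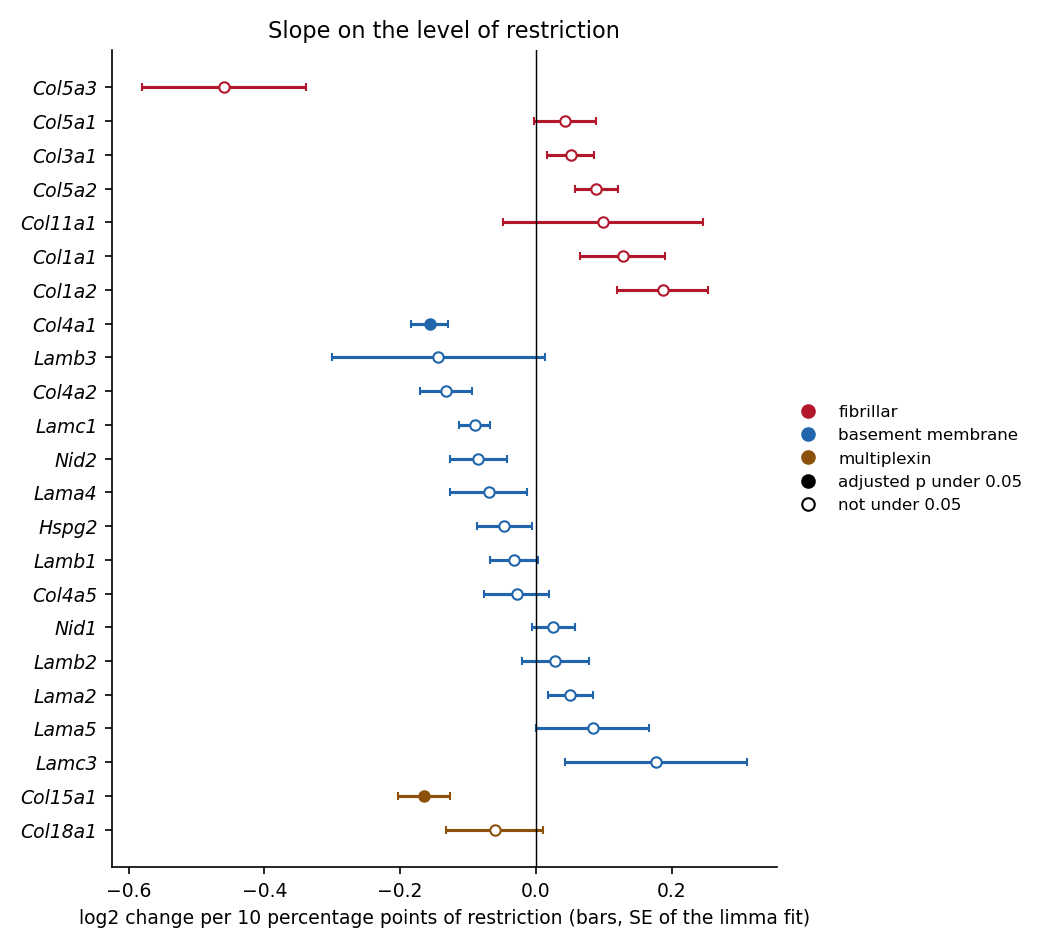
Log2 slope per 10 percentage points of restriction (x axis), with the SE of the limma fit as bars, for the tested fibrillar, basement membrane and multiplexin genes (y axis). The filled points, Col4a1 and Col15a1, passed an adjusted p of 0.05, and 6 of the 7 fibrillar genes lie above 0.

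The mean of the restricted arrays did not differ from that of the controls for any member at an adjusted p of 0.05 (limma), where 2.22% of all genes tested did. Unadjusted p was under 0.05 for 1341 of all 9170 genes tested and for 7 members. These members were Col5a3 (log2 -1.26, adjusted p = 0.0578), Col5a2 (log2 0.29, adjusted p = 0.0624), Fn1 (log2 0.26), Nid1 (log2 0.20), Lama2 (log2 0.18), Col14a1 (log2 0.24) and Col15a1 (log2 -0.32). Col5a3 passed in 4 of 23 alternatives: with arrays centred on their medians, in the 1 month arrays alone, and without the 5% or the 10% CR array of 1 week. On its brightest probe set Col5a2 was above its control on all 4 restricted arrays at each duration. With the 1 week control and 5% CR arrays exchanged, this held at 1 week for the 20% CR array alone (1082 against 1028). A separate probe set for Col5a2 gave a smaller difference (log2 0.05, adjusted p = 0.855). At 1 month all 4 restricted arrays were above the control for 10 members and below it for 10, where 25.5% and 28.1% of all genes tested were. At 1 week this held for 11 and 5 members, against 23.6% and 22.7%. These 1 week counts took the control array by its title and were not repeated with the exchange.

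Fibrillar and basement membrane genes were then set against each other array by array, as a description with no test, since the genes share arrays and the 4 levels of a duration share a control. Log2 ratios to the control of the same duration were taken, and the median of the 14 basement membrane genes was subtracted from that of the 7 fibrillar genes. At 1 month this difference was 0.06 at 5%, 0.18 at 10%, 0.34 at 20% and 0.56 at 30% CR. At 1 week it was 0.17, -0.15, 0.31 and 0.36. By medians the arrays at 20% and 30% CR thus had the higher values at each duration, and the 1 month values followed the order of the levels. With means in place of medians neither held. At 1 month the 30% CR value (0.28) then lay below that of 20% CR, and at 1 week the 30% CR value (-0.07) lay below that of 5% CR. All 4 ratios of 1 month rest on the control array with the highest fast fibre sum: all 9 fast fibre genes were below that control on each of the 4 restricted arrays (medians -0.64, -0.36, -0.39 and -0.29 from 5% to 30% CR), against medians of 0.08 to 0.11 at 1 week. The part of that array in the ratios was not tested.

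At 30% CR the fibrillar median was 0.46 at 1 month and 0.10 at 1 week, and the basement membrane median was -0.10 at 1 month and -0.26 at 1 week, while the median of all genes tested stayed between -0.02 and 0.01 on all 8 arrays. The difference of 0.36 at 1 week rested on the setting: it was -0.07 with means in place of medians and -0.05 with the 1 week control and 5% CR arrays exchanged. At 1 month and 30% CR it was 0.28 with means and 0.69 without Col5a3, an alternative added after the data were seen. The 3 type IV genes had medians of -0.30 at 20% and -0.40 at 30% CR at 1 week, and of -0.33 and -0.20 at 1 month. The 8 laminins had medians of 0.05 and -0.13 at 1 week and of 0.24 and 0.01 at 1 month.

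**Figure D4:**
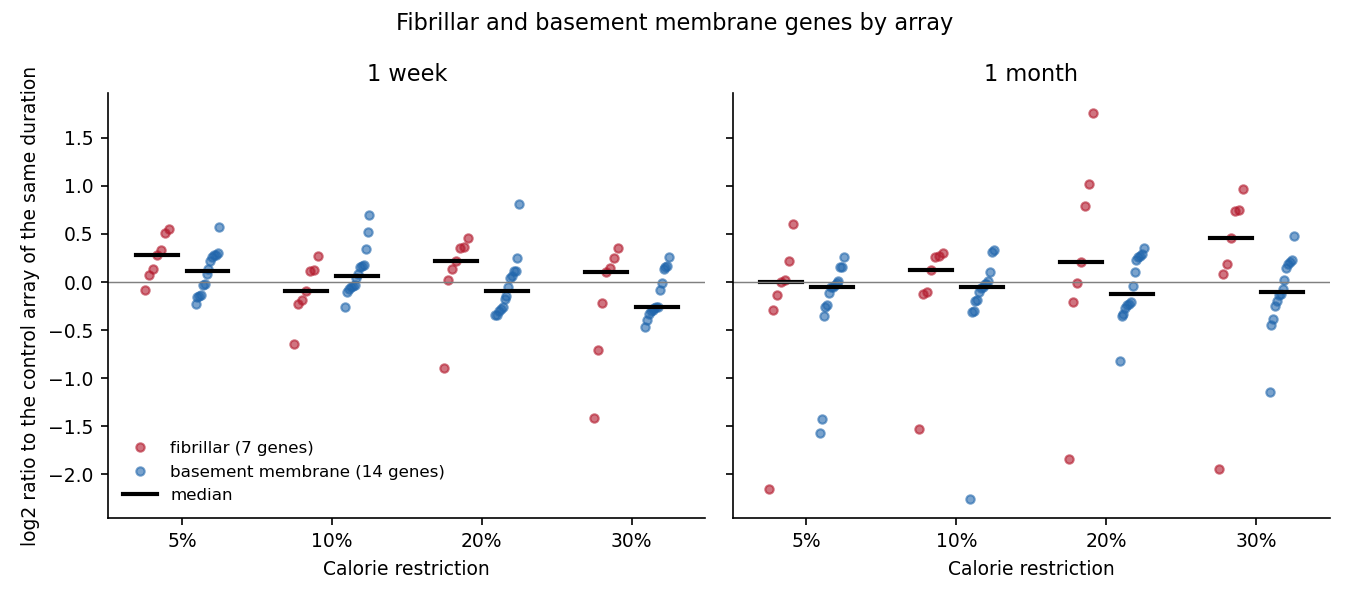
Log2 ratio (y axis) of each restricted array to its control, at each level of restriction (x axis) for the 7 fibrillar and 14 basement membrane genes tested, 1 point per gene, with black bars for the medians. The fibrillar median lies 0.56 above the basement membrane median at 30% CR after 1 month and 0.06 above it at 5% CR, and the lowest fibrillar points at 1 month are Col5a3.

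No member's slope differed between the durations at an adjusted p of 0.05 (limma), and 0.0% of all genes tested did, with 532 of them at an unadjusted p under 0.05. Unadjusted p was under 0.05 for 6 members. Col1a1 had the smallest (slope at 1 month minus slope at 1 week 0.35 ± 0.089, adjusted p = 0.752), with -0.05 per 10 percentage points in the 1 week arrays alone and 0.30 in the 1 month arrays alone. Col1a2 had slopes of 0.04 and 0.33 (difference 0.29, adjusted p = 0.798). The others were Col12a1 (0.38), Col11a1 (0.60), Fn1 (0.16) and Col15a1 (-0.17). The estimate was above 0 for 32 of 35 members and for 4770 of 9170 genes tested. Of the 11 members with more than 1 tested probe set, the sign was the same in all probe sets for 7.

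Type I collagen and the tenocyte genes were high on the same arrays in part. The 1 week arrays at 5% and 20% CR, which had the highest tenocyte sums of that duration, also had the highest Col1a1 and Col1a2 signals. At 1 month the 20% CR array was highest for the tenocyte sum (1349) and for Col1a1 (2538), while the 30% CR array had a tenocyte sum of 840, near the 819 of its control, and a Col1a1 signal of 2460 against 1462. On that 30% CR array 3 of the 4 tested tenocyte markers were above the control (median log2 ratio of the 4 markers 0.17), and Scx was below it (247 against 316). With the tenocyte covariate the difference between the slopes was 0.28 for Col1a1 (adjusted p = 0.359) and 0.19 for Col1a2 (adjusted p = 0.681). The slope of Col4a1 over all arrays was -0.16 with this covariate (adjusted p = 0.0121) and -0.17 with slow fibre genes as the covariate (adjusted p = 0.0494), and Col15a1 did not pass with either (adjusted p = 0.0741 and 0.0872).

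**Figure D5:**
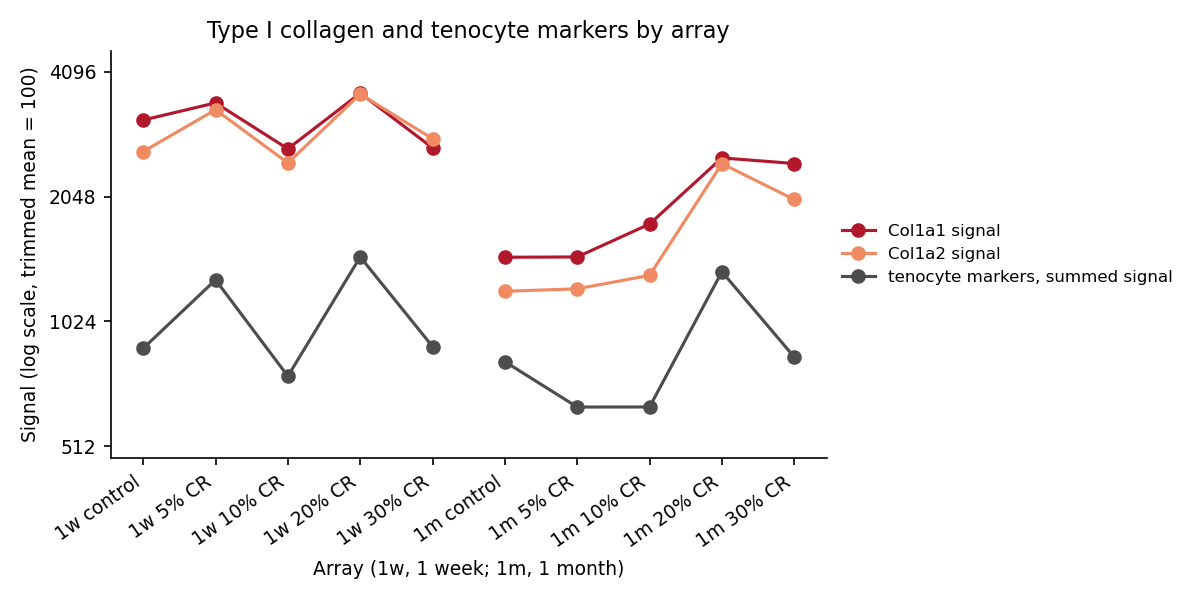
Rescaled signal (y axis, log scale) of Col1a1, Col1a2 and the sum of 5 tenocyte markers on each array (x axis), 1 pooled array per point. The tenocyte sum peaks at 1290 and 1465 on the 5% and 20% CR arrays of 1 week and at 1349 on the 20% CR array of 1 month, and Col1a1 stays at 2460 on the 1 month 30% CR array where the tenocyte sum is 840.

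Of the 4 lists of other matrix genes, 2 held genes that passed over the level of restriction, where 2.17% of all genes tested passed. Of the 18 genes for fibrous matrix, proteins that bind it and the Tgfb and Ccn2 signals, 3 rose per 10 percentage points. These were the small proteoglycan Omd (0.34 ± 0.051, adjusted p = 0.00391), the microfibril protein Mfap5 (0.20, adjusted p = 0.0229) and decorin, Dcn (0.10, adjusted p = 0.0491). Of the 13 genes for degradation or its inhibitors, the lysosomal protease Ctsl rose (0.20, adjusted p = 0.0126). None of 20 maturation genes and none of 15 receptor genes passed (limma). At an unadjusted p under 0.05 were 5 and 3 of them, and 1355 of all 9170 genes tested. Of 8 fibroblast markers 3 rose, Clec3b (0.21), Scara5 (0.21) and Dcn, and the endothelial receptor Kdr fell (-0.36 ± 0.047, adjusted p = 0.00156). Kdr was the 1 endothelial marker of 7 that passed, and its signal ran from 200 to 116 at 1 week and from 195 to 74.0 at 1 month between control and 30% CR. Of 6 macrophage markers C1qb rose (0.31, adjusted p = 0.0265) and 4 had an unadjusted p under 0.05, and of 3 adipocyte markers Cfd rose (0.43, adjusted p = 0.00766). None of 9 slow fibre markers passed (limma), although 7 had an unadjusted p under 0.05 and the median slope was 0.32. The part of these cell types in the slopes of Col4a1 and Col15a1 was not tested beyond the covariate fits.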

How the data were processed

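RNA of 5 rats per group was pooled, and the authors hybridised each pool to 1 Affymetrix Rat Genome 230 2.0 array. The table they deposited holds 1 MAS5 signal intensity per probe set, linear and without detection calls. A trimmed mean of it (2% left out at each end) ran from 99.1 to 99.6 in the 1 week arrays and from 85.8 to 86.3 in those of 1 month, so every array was rescaled to 100. Signals were floored at 0.1 before log2 was taken. Of 31042 probe sets that are no controls, 15521 were tested with limma 3.58.1 in R 4.3.3 (lmFit and eBayes with a variance trend), with Benjamini-Hochberg adjustment over all of these at 0.05. The dose trend left 7 residual degrees of freedom. A gene was read from its brightest probe set that carried no other gene, giving 9170 tested genes. Of 31099 probe sets 20832 carried 1 gene, and all 55 members matched the RefSeq table. The fits were tested on simulated data. The members, gene lists and tests were chosen with earlier results of these data known. Estimates were named for members that passed (up to 8 per direction and fit), for 11 core genes in the dose and duration fits and for up to 3 passing genes per list, and any others were chosen after their values were seen. Alternatives were other scalings, filters, pseudocounts and probe set rules, no variance trend, ranked levels, each duration alone, exchanging the 1 week control and 5% CR arrays, and leaving out each array. The number of arrays limits precision.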

Additional observations from a re-analysis of the deposited data

Results flagged for a closer look

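Col26a1, a little-known collagen, lay above its control on all 4 restricted arrays at 1 week (log2 ratios 0.06 to 0.62) and below it on all 4 at 1 month (-0.62 to -0.06). The mean log2 ratio was 0.66 lower at 1 month (difference -0.66). Its signals were dim, from 24.7 to 38.1 at 1 week and from 11.5 to 17.7 at 1 month, against a filter of 19.31 on the geometric mean over all arrays. It passed the filter only through the 1 week arrays. With the 1 week control and 5% CR arrays exchanged, the array then used as control (38.1) lay above all other 1 week arrays (24.7 to 37.6). The sign was then the same at both durations. Of all genes tested, 23.6% lay above the control on all 4 restricted arrays at 1 week and 28.1% below it at 1 month. The share with both was not counted. The slopes of both durations did not differ at the threshold (limma, -0.25 ± 0.20, adjusted p = 0.889), and the sign change itself was not tested.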

How the results depend on the processing

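The lower signal of matrix genes at 1 month held in all 24 alternatives, with 21 to 31 members lower and 0 higher. Its median depended on the scaling: with the deposited scaling it was -0.93 for fibrillar and -0.81 for basement membrane genes, and Lamb2 turned to -0.068. The fibrillar median was -0.54 with the 70th percentile filter, -0.54 with 32 added to the signal and -0.55 with tenocyte markers as a covariate, and the basement membrane median was -0.48 with no filter and -0.44 with 32 added. Leaving out each array gave -0.87 to -0.65 and -0.63 to -0.50.

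Of the 2 members that fell with restriction, Col4a1 alone passed with no filter, the exchange, the mean of probe sets and either covariate. With median centring and in the 1 week arrays alone the 1 member that fell was Col5a3, with quantile normalization the 2 were Col4a1 and Lamc1, and the count was 0 with no variance trend and in the 1 month arrays alone. Leaving out each array gave 0 to 3, with 0 without the 1 week 30% CR array and 3 (Col5a3 added) without the 1 month 5% CR array. In the 1 week arrays alone the slopes of Col1a1, Lamb2 and Fn1 were -0.046, -0.035 and -0.024, and that of Nid1 ran from -0.00023 to 0.035 over the arrays left out. In the restricted arrays alone the 1 member that fell became 0 with median centring, no filter, no variance trend, the 1 month arrays alone, the exchange, the mean of probe sets and the slow fibre covariate, and 0 to 1 over the arrays left out. Col1a1 was the 1 member that rose in the 1 month restricted arrays alone, where the fibrillar median was 0.15, against -0.044 for fibrillar and -0.10 for basement membrane genes at 1 week.

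For restricted arrays against control, 1 member rose with the 70th percentile filter (Col5a2), 1 fell with median centring and in the 1 month arrays alone (Col5a3), and 0 to 1 fell over the arrays left out. The fibrillar median of the difference between slopes was 0.19 with the slow fibre covariate and 0.024 to 0.31 over the arrays left out, highest without the 1 month control.

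The fibrillar minus basement membrane difference at 1 week and 30% CR was 0.10 with no filter, 0.22 with the mean of probe sets, -0.074 with means and -0.052 with the exchange. At 1 month and 30% CR it was 0.28 with means, 0.35 with the mean of probe sets and 0.69 without Col5a3. At 1 week it was -0.17 at 5% CR with the exchange and 0.15 at 10% CR with the 70th percentile filter. The causes were not tested, except that leaving out arrays or probe sets changes what is fitted. The covariates and the omission of Col5a3 were chosen after seeing the data. Arrays could not be paired by replicate, because each group had 1 array. Level as a factor, which matches the arrays of each level, gave 24 members lower at 1 month. With 1 pooled array per group, precision is limited by the number of arrays. The dim genes Lamb3, Lamc3, Col26a1 and Col11a1, and the fibrillar Col5a3, had the widest errors.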
